A study of Mus musculus with 16 samples.

Results

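Class I antigen presentation was followed through 10 genes across tumor-infiltrating lymphocytes (TILs), namely H2-K1, H2-D1, B2m, Tap1, Tap2, Tapbp, Psmb8, Psmb9, Psmb10 and Nlrc5. They were chosen by name, with earlier results of these data known, as 10 of the 55450 genes in the count table. All 10 passed the filter on low counts in every comparison. The libraries came from CD4+ and CD8+ TILs of subcutaneous tumors of B16F10, a mouse melanoma line, grown in wild-type (WT) or Sirt2KO mice, written Sirt2-/- here, which gave 4 groups of 4 libraries and 16 libraries in all. The knockout was a germline allele, Sirt2tm1.1Fwa, so the host cells around the T cells also lacked Sirt2, a deacetylase, whereas B16F10 is an established line without that allele. The mice received no further agent according to the labels, and the study's methods describe young adults with age- and sex-matched controls. TILs were obtained by enzymatic digestion, a density gradient and beads against CD3. How CD4+ and CD8+ cells were then parted was not given in the sources used here, nor was it stated whether the CD4+ and CD8+ libraries of one number came from the same animal. P-values therefore measure the spread between these libraries.

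Class I molecules carry peptides cut from the cell's own proteins to the surface, where CD8+ T cells read them. Almost every nucleated cell, T cells included, makes them. The heavy chains H2-K and H2-D pair with beta-2 microglobulin, peptides are cut by the proteasome, pumped into the endoplasmic reticulum by the TAP1-TAP2 transporter and loaded with the help of tapasin, the product of Tapbp. Interferon-gamma raises the whole pathway, replaces 3 proteasome subunits by the inducible Psmb8, Psmb9 and Psmb10, and induces Nlrc5, the transactivator that works at class I promoters.

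No member passed the test between genotypes in either cell type. In CD8+ TILs all 10 members had a fitted level above WT in Sirt2-/- libraries, by 1.08-fold (H2-D1) to 1.53-fold (Tapbp). That direction was found for 51.9% of all genes tested. Between cell types, H2-D1 and Tap2 were called lower in CD8+ than in CD4+ TILs of WT mice. These were 2 of 10 members, against 11.9% of all genes called in either direction. H2-D1 was called in WT TILs under each of the 16 alternatives tried, whereas the call of Tap2 was lost under several of them. In Sirt2-/- TILs, 0 of 10 members were called between cell types with edgeR, against 2.24% of all genes.

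Of the members, 7 lie on chromosome 17, in or near the major histocompatibility complex (GRCm38, GENCODE release M21). H2-K1 spans chr17:33996017-34000347 on the minus strand and H2-D1 chr17:35262730-35267499 on the plus strand. Tap1 (chr17:34187553-34197225, plus) and Psmb9 (chr17:34181987-34187764, minus) are annotated head to head and share 212 exonic bases on opposite strands. Psmb8 (chr17:34197721-34201454) and Tap2 (chr17:34203527-34216321) follow Tap1 on the plus strand, and Tapbp lies at chr17:33915899-33929292. B2m is on chromosome 2 (chr2:122147686-122153083, plus). Psmb10 (chr8:105935735-105938444, minus) and Nlrc5 (chr8:94434356-94527272, plus) are on chromosome 8. Exons of Tapbp, Tap2 and Psmb8 also overlap genes on the other strand, over 24.9%, 18.5% and 14.7% of their exonic bases. The kit kept the strand, but the counting setting was not given in the sources used here, so reads of a gene and of its antisense partner may not have been told apart there. Of the 100-base windows of the longest H2-D1 transcript, 4.64% are also found in other class I genes, and of the longest H2-K1 transcript 0%. These transcripts have 2102 and 1874 bases, beside 2579 and 2938 exonic bases of the genes, so the other exonic bases were not searched.

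The promoters of the heavy chains and of B2m are shown because the elements through which Nlrc5, NF-kB and interferon regulatory factors (IRFs) are known to act at class I genes lie close to the gene start. RefSeq promoter sequence (GRCm38.p6) was given for 8 of the 10 members, without Tap2 and Nlrc5. In the 120 bases of H2-K1 (chr17:34000349-34000468, minus strand), which lie outside annotated exons, capitals mark, from left to right, a match to the NF-kB motif GGGNNTTCC, to the IRF motif GAANNGAAA on the other strand, to TGACG, the core of cyclic AMP response elements, and to the Y box ATTGG. In the 50 bases of B2m (chr2:122147599-122147648, plus strand), capitals mark TGACG and ATTGG.
H2-K1: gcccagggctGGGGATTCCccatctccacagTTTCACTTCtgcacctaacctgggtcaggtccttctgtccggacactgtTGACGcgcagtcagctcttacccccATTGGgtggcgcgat
B2m: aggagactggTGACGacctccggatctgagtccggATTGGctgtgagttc
The stretch from the NF-kB to the IRF match is nearly the same at H2-K1 (chr17:34000429-34000458, minus) and H2-D1 (chr17:35262923-35262952, plus). It differs by the single substitution A18T, counted from the first base of the stretch with the base of H2-K1 first. At H2-D1 it lies within annotated exons, downstream of the GENCODE gene start (chr17:35262730), whereas at H2-K1 it lies outside annotated exons.
H2-K1: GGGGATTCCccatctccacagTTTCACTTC
H2-D1: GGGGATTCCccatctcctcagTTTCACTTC
Both strands of the 250 bases before the RefSeq start were searched. The IRF motif was found in 2 of the 8 members, H2-K1 and H2-D1, against 7.3% of the promoters of 27025 genes. The NF-kB motif was found in the same 2 members, against 5.6% of genes. ATTGG was found in 6 of 8 members (B2m, Tapbp, H2-K1, H2-D1, Tap1 and Psmb9), against 37.5%. TGACG was found in 5 of 8 (all of these except Tapbp), against 19.8%. The gamma-activated site motif TTCNNNGAA was found in 1 of 8, Psmb8, against 8.1%. Tap1 and Psmb9 share most of the searched window, so their matches are the same letters. The stretches that hold the ATTGG and TGACG matches of H2-D1, Tapbp, Tap1 and Psmb9 lie within exons annotated in GENCODE. Those of H2-K1 and B2m do not. These matches describe the letters only.

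Total counts per library ranged from 28000949 to 62407851. In 13 libraries at least 1 count was found on 17730 to 22138 genes, whereas Sirt2-/- CD4+ replicate 4 had 8169 genes, WT CD4+ replicate 1 had 12587 and WT CD8+ replicate 1 had 14411. These 3 low-detection libraries stood apart, and results of the members that rest on them are given with and without them. Sirt2 had 32.7 to 81.1 CPM (counts per 1000000 counts of the library) in the 8 WT libraries and 0 to 12.3 in the 8 Sirt2-/- libraries. It was lower in Sirt2-/- CD8+ TILs (log2 fold change -2.22 ± 0.21 (SE), edgeR quasi-likelihood test, adjusted p = 0.00663) and was not called in CD4+ TILs (-2.60 ± 1.26, adjusted p = 0.9999). The CD4+ groups did not overlap, at 40.2 to 81.1 CPM in WT and 0 to 12.3 CPM in Sirt2-/- libraries. The value at 0 was that of the low-detection replicate 4. The fit in CD4+ TILs thus missed the deleted gene, and a gene not called there may still differ. Cd4 had 344 to 639 CPM in CD4+ libraries and at most 4.94 in CD8+ libraries, and Cd8a with Cd8b1 had 1498 to 2029 CPM in CD8+ and at most 67.0 in CD4+ libraries.

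The members together took 0.558% to 0.795% of all counts in a library. On a scale per exon length (RPKM, counts scaled to exon length and library total), B2m had the highest group mean in every group, from 1321 ± 509 (SD, n = 4) in WT CD4+ to 1926 ± 91.7 in Sirt2-/- CD8+ TILs. H2-K1 and H2-D1 came next. In CD8+ TILs they lay within their spread of each other, at 576 ± 55.6 and 567 ± 44.0 RPKM in WT and 624 ± 27.4 and 602 ± 29.6 RPKM in Sirt2-/- libraries. The loading and transport genes were lower, with Tapbp at 74.0 to 111 RPKM as group means and Tap1 lowest in WT CD8+ TILs, at 46.5 ± 6.02 RPKM. Tap1, Tap2 and Nlrc5 changed places between groups and their ranges overlapped in CD4+ TILs. Of the inducible proteasome subunits, Psmb8 had 108 to 156 RPKM as group means, above Psmb9 (16.9 to 21.4) and Psmb10 (18.1 to 43.1). The constitutive subunits Psmb5, Psmb6 and Psmb7, which the inducible ones replace, had group means of 7.97 to 15.7, 18.4 to 35.0 and 10.1 to 14.9 RPKM.

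**Figure D1:**
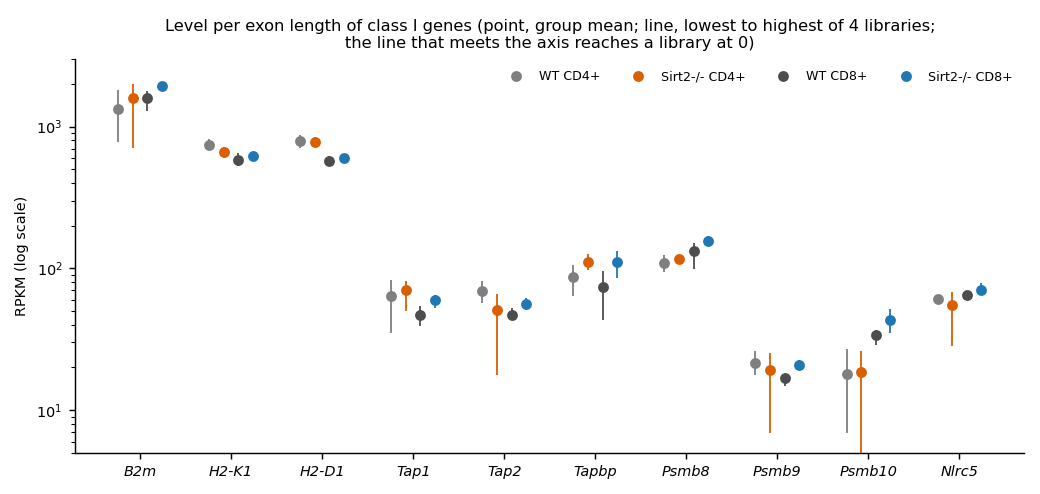
Level of each member per exon length (RPKM, log scale) in the 4 groups, with points for group means and lines from the lowest to the highest of 4 libraries. B2m lies highest in every group, H2-K1 and H2-D1 next, and Psmb9 and Psmb10 lowest, and 1 Sirt2-/- CD4+ library had Psmb10 at 0.

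The comparison of Sirt2-/- with WT CD8+ TILs asked whether the pathway differed with Sirt2 in the cells that read class I molecules. Beta-2 microglobulin and the inducible subunit Psmb9 were the members whose groups did not overlap. B2m had 1111, 1435, 1538 and 1427 CPM in the WT libraries and 1757, 1654, 1564 and 1650.5 CPM in the Sirt2-/- libraries. Every Sirt2-/- library lay above every WT library, with the low-detection WT replicate 1 lowest. The fitted log2 fold change of B2m was 0.29 ± 0.12 (SE), a 1.23-fold difference, which did not pass the correction over all 15302 genes tested (edgeR, unadjusted p = 0.0297, adjusted p = 0.986). Without WT CD8+ replicate 1 it was 0.20 ± 0.10 (edgeR, adjusted p = 0.9998). Not overlapping with higher values in Sirt2-/- libraries was found for 2 of 10 members and for 1.48% of all genes tested.

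The heavy chains had smaller fitted differences. H2-K1 had 1614, 1549, 1688 and 1923 CPM in WT and 1916, 1876, 1809 and 1732 CPM in Sirt2-/- CD8+ libraries. H2-D1 had 1356, 1488, 1395 and 1611 CPM in WT and 1599, 1636, 1506 and 1474 CPM in Sirt2-/- CD8+ libraries. For H2-K1, WT replicate 4 was the highest of the 8 libraries and the other WT libraries lay below every Sirt2-/- library. For H2-D1, WT replicates 2 and 4 lay within the range of the Sirt2-/- libraries. The log2 fold changes were 0.14 ± 0.11 for H2-K1 and 0.11 ± 0.10 for H2-D1, and neither passed the test.

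The transport and loading genes had larger fitted differences. Tapbp, which encodes tapasin, the bridge between the transporter and the empty class I molecule, had 158, 291, 279.9 and 346 CPM in WT and 481, 417, 310.2 and 404 CPM in Sirt2-/- CD8+ libraries. WT replicate 1 was lowest and Sirt2-/- replicate 1 highest, and Sirt2-/- replicate 3 fell within the WT range. Its log2 fold change was 0.61 ± 0.22 with all libraries (edgeR, unadjusted p = 0.0196, adjusted p = 0.986) and 0.42 ± 0.16 without WT replicate 1 (edgeR, unadjusted p = 0.0204). Tap1, a subunit of the peptide transporter, had 215, 261, 247 and 295 CPM in WT and 353, 347, 289.8 and 317 CPM in Sirt2-/- libraries. The groups overlapped by 1 library on each side. Its log2 fold change was 0.38 ± 0.12 (edgeR, unadjusted p = 0.0101), the smallest p among the members. Tap2, the other subunit, had 167, 182, 165 and 197 CPM against 233, 216, 204 and 193 CPM, with a log2 fold change of 0.28 ± 0.11. Sirt2-/- replicate 4 lay within the WT range.

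The inducible proteasome subunits showed the same direction. Psmb9 had 54.4, 66.0, 60.3 and 66.2 CPM in WT and 82.0, 75.8, 75.2 and 70.1 CPM in Sirt2-/- CD8+ libraries, with all Sirt2-/- values above all WT values. Its log2 fold change was 0.32 ± 0.11 (edgeR, unadjusted p = 0.0156, adjusted p = 0.986). Psmb10 had 49.2, 60.5, 59.2 and 62.1 CPM in WT and 76.0, 87.6, 59.7 and 70.6 CPM in Sirt2-/- libraries. Sirt2-/- replicate 3 stayed within the WT range, and the log2 fold change was 0.37 ± 0.13. Psmb8 had 337, 509, 431 and 508 CPM against 533, 572, 499 and 501 CPM (log2 fold change 0.26 ± 0.14), with WT replicate 1 lowest. The transactivator Nlrc5 had 569.9, 538, 546 and 545 CPM in WT and 587, 673, 547 and 575 CPM in Sirt2-/- libraries, a log2 fold change of 0.14 ± 0.09.

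Across the members in CD8+ TILs, 0 of 10 were called at an adjusted p below 0.05 with edgeR, against 0.00654% of all genes tested (1 gene, Sirt2 itself). DESeq2 and limma-voom also called 0 of 10 members, against 28 and 5 of 15302 genes. The shares that follow are those of edgeR. All 10 had a fold change above 0, against 51.9% of all genes, and 6 had an unadjusted p below 0.05 with a higher level in Sirt2-/- libraries, against 2.18% of all genes. The median log2 fold change of the members was 0.28, beside 0.01 over all genes tested. The members share libraries and are not independent of each other. They and the gene lists below were chosen with earlier results of these data known, so the shares of all genes are no independent check. Leaving out each of the 8 libraries in turn kept all 10 members above 0, with medians from 0.22 to 0.36. The number with an unadjusted p below 0.05 ranged from 1 (without Sirt2-/- CD8+ replicate 1) to 8 (without WT CD8+ replicate 4) over these fits, was 4 without WT CD8+ replicate 1, and was 1 with all 16 libraries in 1 model.

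**Figure D2:**
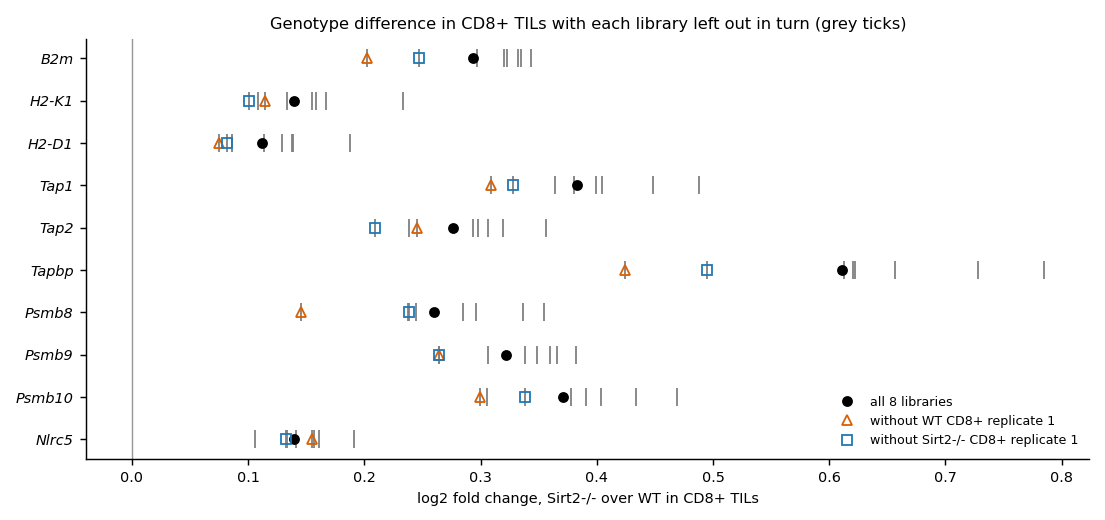
Log2 fold change of each member between Sirt2-/- and WT CD8+ TILs, with a black point for all 8 libraries, grey ticks for each library left out in turn, and open symbols for the fits without WT replicate 1 and without Sirt2-/- replicate 1. All points lie right of 0, and Tapbp moved from 0.61 to 0.42 without WT replicate 1.

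Genes around the pathway differed in direction in the same comparison, and none was called with edgeR. Of the 12 genes of the interferon-gamma pathway, 10 had a fold change above 0, against 51.9% of all genes. An unadjusted p below 0.05 with a higher level was found for 7, against 2.18%, and the median log2 fold change was 0.44. Of 13 other class I and class I-like heavy chains tested, 8 were above 0 and 1 had an unadjusted p below 0.05, with a median of 0.14. Irf1, an interferon-induced factor that binds class I promoters, had 152, 171, 169 and 189 CPM in WT and 352, 277, 202 and 199 CPM in Sirt2-/- libraries, which did not overlap (log2 fold change 0.63 ± 0.19, edgeR unadjusted p = 0.0064). Ifng, the cytokine itself, ranged from 7.39 to 11.9 CPM in WT and from 6.81 to 20.9 CPM in Sirt2-/- libraries, and the groups overlapped (0.41 ± 0.32). The constitutive subunits Psmb5, Psmb6 and Psmb7 had log2 fold changes of 0.06 ± 0.25, 0.22 ± 0.21 and -0.07 ± 0.15. None of the 6 genes of peptide loading and trimming, of the 3 PA28 proteasome activator genes and of the 11 class I promoter factors had an unadjusted p below 0.05.

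Markers of other cells also had higher levels in part of the Sirt2-/- CD8+ libraries. The summed level of 6 class II genes, which mark antigen-presenting cells, was 19.8, 22.4, 26.3 and 25.1 CPM in WT and 40.6, 35.1, 35.3 and 94.4 CPM in Sirt2-/- libraries, with every Sirt2-/- library above every WT library. All 5 class II genes tested had a fold change above 0, and 3 had an unadjusted p below 0.05 (edgeR). The summed level of 12 myeloid markers was 9.09 to 26.7 CPM in WT and 18.0 to 66.2 CPM in Sirt2-/- libraries, and 10 of 10 tested had a fold change above 0, with 3 at an unadjusted p below 0.05. Between 0 and 9 of these 12 markers were at 0 in a WT library and at most 1 in a Sirt2-/- library. The summed stromal and endothelial markers were 37.1 to 46.8 CPM in WT and 40.2 to 104 CPM in Sirt2-/- libraries, B cell markers 1.58 to 2.93 and 2.10 to 4.49 CPM, and dendritic cell markers 3.12 to 8.12 and 1.85 to 4.35 CPM. Of 5 stromal and endothelial markers, 4 were at 0 in WT CD8+ replicate 1, and of 5 dendritic cell markers only 1 was tested. Melanoma markers summed to 3.84 to 11.7 CPM in WT, highest in the low-detection replicate 1, and to 7.41 to 15.7 CPM in Sirt2-/- libraries, and 3 of 3 tested had a fold change above 0. NK cell markers summed to 28.1 to 38.7 and 16.5 to 45.3 CPM, and 1 of 3 had a fold change above 0. Cd4 had 0 to 1.97 CPM in WT and 1.64 to 4.94 CPM in Sirt2-/- CD8+ libraries, and the groups overlapped (log2 fold change 1.79). Between genotypes in CD4+ TILs, 9 of 9 myeloid, 3 of 3 stromal and endothelial and 2 of 2 CD8 T cell markers tested were also above 0. So were 3 of 5 class II genes, 2 of 3 NK cell, 1 of 5 melanoma, 0 of 2 B cell and 0 of 1 dendritic cell markers. None of these had an unadjusted p below 0.05 there. The part of such other cells in the class I result was not tested. In bulk libraries, a different share of cells of one type and a different RNA level per cell cannot be told apart.

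In CD4+ TILs no member passed the test between genotypes, and the libraries spread widely. B2m had 859, 1550.0, 1465 and 669.6 CPM in WT and 1508, 1718, 1669 and 612 CPM in Sirt2-/- CD4+ libraries. The low values came from both low-detection libraries and from WT replicate 4, which was not one of them. H2-K1 had 2198, 2082, 1999.8 and 2410.1 CPM against 2023, 2093, 1942 and 1764 CPM, and H2-D1 had 2249, 2106, 2002 and 1824 CPM against 1872, 2124, 2160.4 and 1854 CPM. Their log2 fold changes were -0.14 ± 0.16 and 0.0012 ± 0.13, and the groups overlapped for both. Tap2 had 307, 225, 216 and 302 CPM in WT and 248, 208, 249.6 and 66.4 CPM in Sirt2-/- libraries. The lowest value was that of Sirt2-/- replicate 4, in which Psmb10 was at 0 counts (which allows up to 3 counts), Nlrc5 at 239 CPM (493 to 579 in the others) and Psmb9 at 25.0 CPM (77.9 to 93.1 in the others). Psmb8 in contrast was 394 to 397 CPM in all 4 Sirt2-/- CD4+ libraries.

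Of the 10 members, 0 were called in CD4+ TILs with edgeR, DESeq2 or limma-voom, and 0 had an unadjusted p below 0.05 with edgeR. With edgeR, 0% of all 15070 genes tested were called. An unadjusted p below 0.05 with a higher level in Sirt2-/- libraries was found for 0.995%, and 190 genes had one in either direction. DESeq2 called 7 genes and limma-voom 4. With edgeR, Sirt2 was not called either although its groups did not overlap, so 0 members called does not show equal levels. A fold change above 0 was found for 5 of 10 members, against 42% of all genes, and 0 of 10 did not overlap with higher values in Sirt2-/- libraries, against 1.28%. The median of the members was -0.01, beside -0.11 over all genes, and leaving out each library gave medians from -0.10 (without WT replicate 1) to 0.10 (without Sirt2-/- replicate 4). The largest fitted changes were those of Tap2 (-0.45 ± 0.35) and Tapbp (0.37 ± 0.21). Without both low-detection CD4+ libraries, 6 members were above 0 and the median was 0.01, beside -0.0016 over all genes.

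The difference of the genotype effect between CD8+ and CD4+ TILs was tested over all 16 libraries. Tap2 had the largest difference, 0.74 ± 0.38 on the log2 scale (edgeR, unadjusted p = 0.07, adjusted p = 0.9999). B2m had -0.0039 ± 0.36 and H2-D1 0.12 ± 0.15. With edgeR 0 of 10 members were called, against 0% of 17270 genes tested. Of these genes, 342 had an unadjusted p below 0.05 and none were members. DESeq2 and limma-voom also called 0 members, against 2 and 0 genes. A difference above 0 was found for 9 of 10 members, against 58.2% of all genes. The median was 0.27, beside 0.14 over all genes. It was 0.12 without WT CD4+ replicate 4, 0.17 without Sirt2-/- CD4+ replicate 4 and 0.05 with limma-voom. The genotype effect was thus not shown to differ between the cell types.

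**Figure D3:**
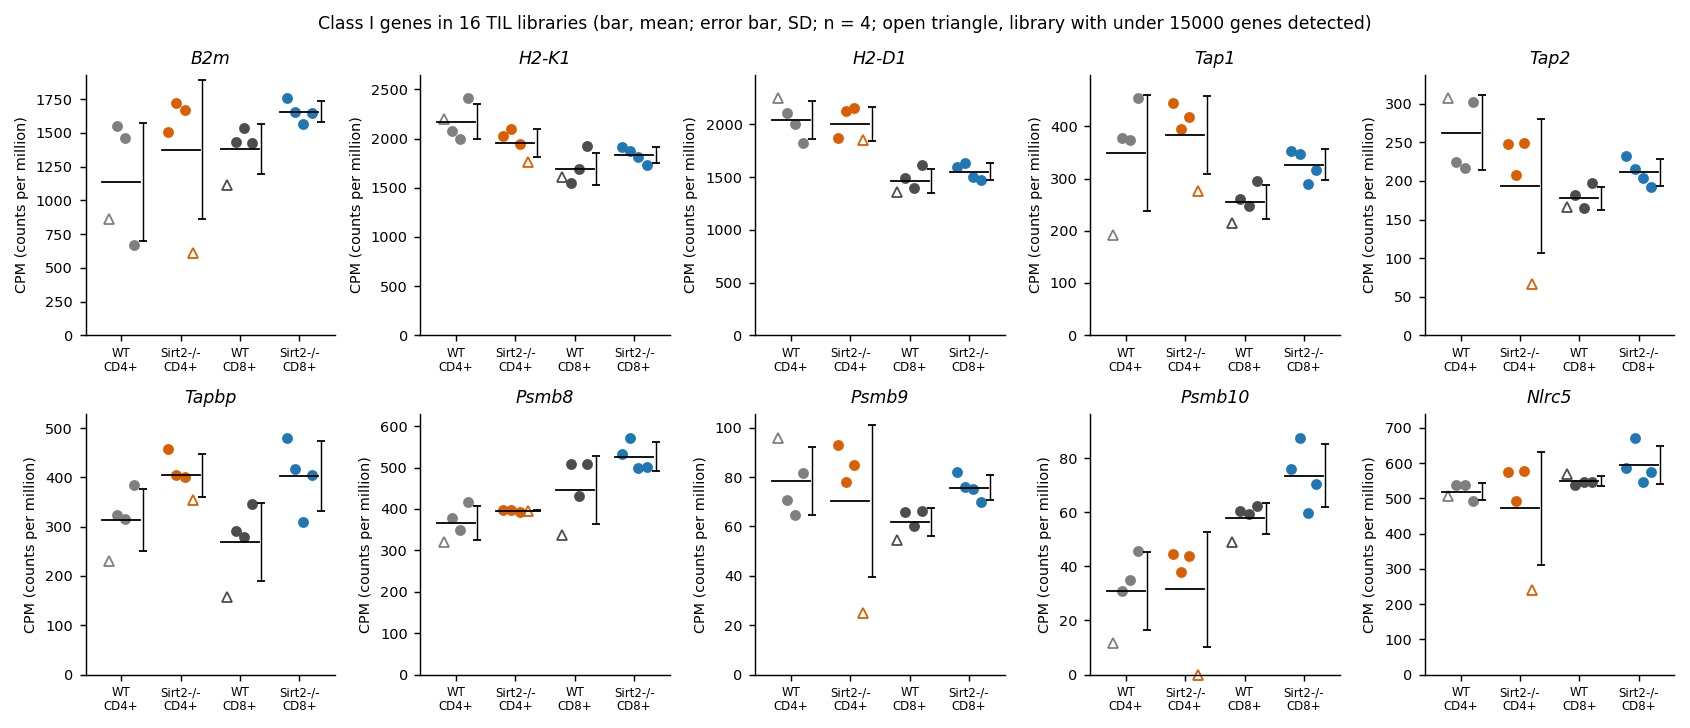
CPM of each member in every library of the 4 groups, with bars for means, error bars for SD (n = 4) and open triangles for the 3 libraries with under 15000 genes detected. The triangle of Sirt2-/- CD4+ lies lowest of its group for every member except Psmb8, and H2-D1 lies lower in CD8+ than in CD4+ groups of both genotypes.

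**Figure D4:**
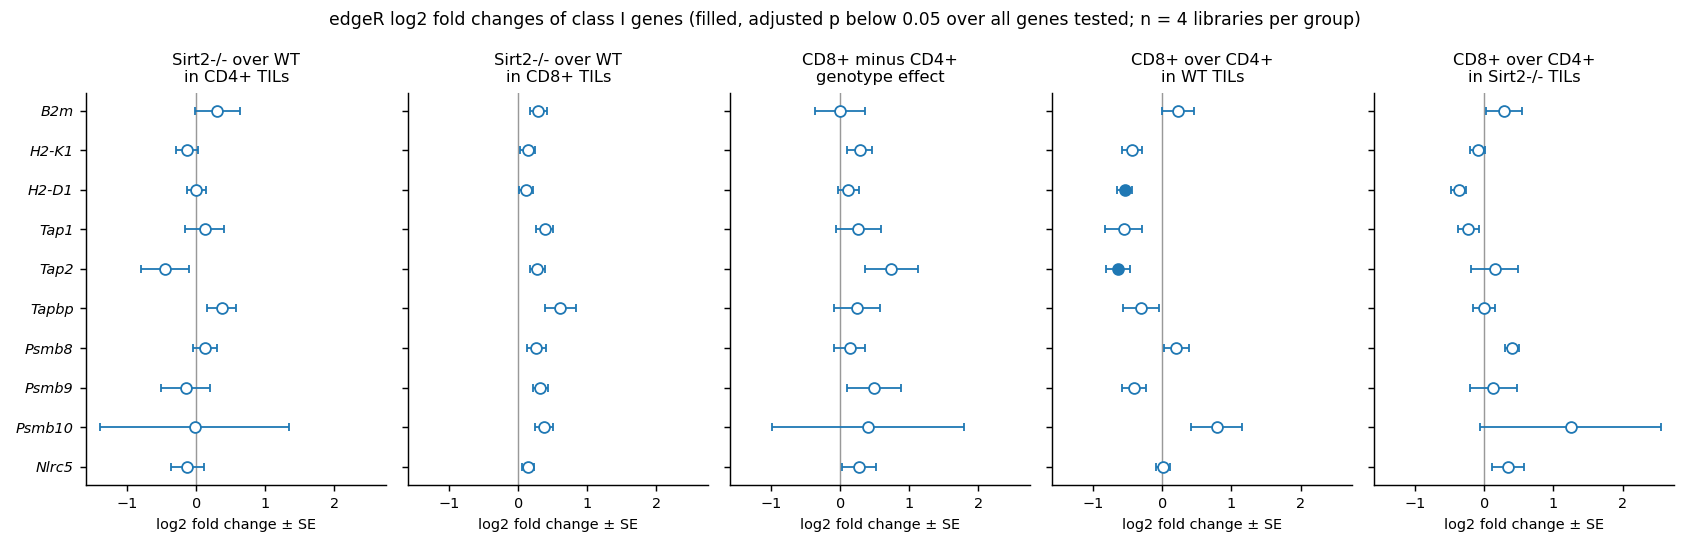
Log2 fold change ± SE of each member in the 4 comparisons and in the difference of the genotype effect (edgeR, n = 4 libraries per group), with filled points for an adjusted p below 0.05 over all genes. H2-D1 and Tap2 in WT TILs are the 2 filled points, and all 10 members lie above 0 between genotypes in CD8+ TILs.

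Between cell types, the heavy chain H2-D1 was lower in CD8+ than in CD4+ TILs of WT mice. It had 2249, 2106, 2002 and 1824 CPM in CD4+ and 1356, 1488, 1395 and 1611 CPM in CD8+ libraries. Every CD8+ library lay below every CD4+ library. The log2 fold change of CD8+ over CD4+ was -0.54 ± 0.11, a level 0.686 times that of CD4+ TILs (edgeR, adjusted p = 0.00675), and the adjusted p of H2-D1 over the 16 alternatives ranged from 3.2e-05 to 0.0426. H2-K1 did not overlap either, at 2198, 2082, 1999.8 and 2410.1 CPM in CD4+ against 1614, 1549, 1688 and 1923 CPM in CD8+ libraries. Its change of -0.44 ± 0.14 did not pass the threshold (edgeR, adjusted p = 0.0742) and was called with DESeq2 and limma-voom. H2-K1 was not called without the low-detection libraries (-0.37 ± 0.15, edgeR adjusted p = 0.107) or with all 16 libraries in 1 model (adjusted p = 0.141). Leaving out each library in turn gave -0.52 to -0.26, with edgeR adjusted p from 0.0695 to 0.29. B2m, the shared light chain, had 0.23 ± 0.23.

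Tap2 was the other member called in WT TILs, at 307, 225, 216 and 302 CPM in CD4+ and 167, 182, 165 and 197 CPM in CD8+ libraries. The groups did not overlap, and CD4+ replicates 1 and 4 were highest. Its change of -0.64 ± 0.17 (edgeR, adjusted p = 0.0321) was lost without both low-detection WT libraries (-0.50 ± 0.19, adjusted p = 0.073). It was also lost when any of WT CD4+ replicates 1 and 4 or any of the 4 WT CD8+ libraries was left out, with adjusted p from 0.0502 to 0.118, and with all 16 libraries in 1 model (edgeR, adjusted p = 0.328). Its partner Tap1 had 193, 378, 374 and 454 CPM in CD4+ and 215, 261, 247 and 295 CPM in CD8+ libraries (-0.56 ± 0.27, edgeR adjusted p = 0.23). The lowest CD4+ value was that of the low-detection replicate 1. Without the low-detection libraries, Tap1 was called at -0.62 ± 0.16 (edgeR, adjusted p = 0.0135) and Psmb10 at 0.66 ± 0.20 (adjusted p = 0.0282), the latter higher in CD8+ TILs. With H2-D1 these were 3 of 10 members, against 28% of the 15694 genes tested there.

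With all WT libraries, 2 of 10 members were called, both lower in CD8+ TILs, against 11.9% of 14892 genes called in either direction and 6.96% called lower in CD8+ TILs. A fold change below 0 was found for 6 members, against 51.4% of all genes, with a median of -0.36 beside -0.02. The median was -0.16 without WT CD4+ replicate 4, -0.18 without WT CD8+ replicate 1, -0.20 without both low-detection libraries and -0.14 with limma-voom. H2-K1, H2-D1 and Tap2 did not overlap with lower values in CD8+ TILs, as 9.48% of all genes, and Psmb10 did not overlap with higher values, as 12.8%. Psmb10 had 11.7, 31.0, 35.1 and 45.8 CPM in CD4+ and 49.2, 60.5, 59.2 and 62.1 CPM in CD8+ libraries (0.79 ± 0.37, edgeR adjusted p = 0.222). The pathway genes around the members moved in both directions. Ifng was higher in WT CD8+ TILs (log2 fold change 1.78 ± 0.47, edgeR adjusted p = 0.0326), and its receptor chains Ifngr1 (-1.56 ± 0.19, adjusted p = 0.00051) and Ifngr2 (-1.71 ± 0.35, adjusted p = 0.00835), the receptor kinase Jak2 (-0.89 ± 0.12, adjusted p = 0.000895) and Stat2 (-0.90 ± 0.20, adjusted p = 0.014) were lower. In all, 1 of the 12 genes of the interferon-gamma pathway was called higher and 5 lower. Of 13 other class I and class I-like heavy chains tested, 2 were called, H2-Q4 (-0.76 ± 0.17) and the lipid-presenting Cd1d1 (-1.50 ± 0.38), both lower in CD8+ TILs. Erap1, which trims peptides for loading (0.69 ± 0.14), and the proteasome activator Psme3 (0.93 ± 0.13) were called higher, 1 of 6 and 1 of 3 genes of their lists. Nfkb1 (-0.74 ± 0.11) was called lower among 11 promoter factors, and Cd74, the invariant chain of class II, fell by 2.45 on the log2 scale. The summed class II genes were 37.5 to 72.1 CPM in WT CD4+ and 19.8 to 26.3 CPM in WT CD8+ libraries, with no overlap. Summed stromal and endothelial markers (97.9 to 125 against 37.1 to 46.8 CPM) and dendritic cell markers (10.3 to 15.0 against 3.12 to 8.12 CPM) did not overlap either, and were also lower in CD8+ libraries. These sums rested on few genes. Of 5 stromal and endothelial markers 3 were tested, 2 with a fold change below 0 and 1 above 0. Of 5 dendritic cell markers 1 was tested, with a fold change below 0. In WT CD8+ replicate 1, 4 of the 5 stromal and endothelial markers were at 0. NK cell markers were 0 to 8.07 CPM in CD4+ and 28.1 to 38.7 CPM in CD8+ libraries. Melanoma markers were 4.83 to 106 and 3.84 to 11.7 CPM, with 2 of 3 tested at an unadjusted p below 0.05 (edgeR) and lower in CD8+ TILs. The 106 CPM came from the low-detection WT CD4+ replicate 1, and the other WT CD4+ libraries had 4.83 to 14.2 CPM. The part of these other cells in the differences between cell types was not tested.

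In Sirt2-/- TILs, 0 of 10 members were called between cell types with edgeR, against 2.24% of 15787 genes in either direction and 1.32% called lower in CD8+ TILs. An unadjusted p below 0.05 was found for 2 members, H2-D1 and Psmb8, against 11.7% of all genes in either direction. DESeq2 called the same 2 members, against 8.48% of all genes. H2-D1 had 1872, 2124, 2160.4 and 1854 CPM in CD4+ and 1599, 1636, 1506 and 1474 CPM in CD8+ libraries, again without overlap (-0.37 ± 0.11, edgeR adjusted p = 0.153). Psmb8 had 396, 397, 394 and 396 CPM in CD4+ and 533, 572, 499 and 501 CPM in CD8+ libraries, also without overlap and higher in CD8+ TILs (0.40 ± 0.10, adjusted p = 0.102). Psmb10 had 44.5, 38.1, 43.8 and 0 CPM in CD4+ and 76.0, 87.6, 59.7 and 70.6 CPM in CD8+ libraries. Its log2 fold change was 1.25 ± 1.31 with the library at 0 included. Psmb8 and Psmb10 did not overlap with higher values in CD8+ TILs, as 14.6% of all genes, and H2-D1 with lower values, as 6.75%. A fold change below 0 was found for 4 members, against 41.6% of all genes, with a median of 0.14 beside 0.16. Without CD4+ replicate 4 the median turned to -0.08, beside -0.0042 over all genes, with 6 members below 0, and with limma-voom it was -0.02. It was 0.29 without CD4+ replicate 1, 0.25 without CD4+ replicate 3 and 0.07 without CD8+ replicate 1.

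These counts rested on 1 library. Without Sirt2-/- CD4+ replicate 4, 4250 of 16703 genes were called (25.4%) instead of 354, and 4 of 10 members among them. H2-D1 (-0.38 ± 0.10, edgeR adjusted p = 0.0156) and Tap1 (-0.34 ± 0.11, adjusted p = 0.0423) were lower in CD8+ TILs. Psmb8 (0.43 ± 0.09, adjusted p = 0.00585) and Psmb10 (0.82 ± 0.14, adjusted p = 0.00151) were higher. Of the pathway lists, with all libraries, Jak2 (-1.16 ± 0.14, adjusted p = 0.00645) and Ifngr1 (-1.39 ± 0.25, adjusted p = 0.0313) were lower and Irf8 (1.40 ± 0.19, adjusted p = 0.00802) was higher in Sirt2-/- CD8+ TILs. The WT and Sirt2-/- comparisons between cell types use different libraries, and the test of the difference between them is the one given above for the genotype effect, with 0 members called.

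The ratio of an inducible subunit to the constitutive subunit it replaces does not depend on library scaling. It was compared as the difference in mean log2 ratio of counts, with 0.5 added to each count, by exact permutation over libraries (two-sided, 12 tests, smallest p possible 0.0286). None passed after Benjamini-Hochberg adjustment, with adjusted p of 0.343 or more, which is also the lowest that a single ratio at the smallest p could reach over 12 tests. Psmb9 over Psmb6 in Sirt2-/- TILs had 1.12, 0.98, 1.11 and 0.67 in CD4+ and 0.40, 0.22, 0.21 and 0.0046 in CD8+ libraries on the log2 scale. These did not overlap, with a difference of -0.76 at the smallest possible p (exact permutation test, p = 0.0286). Between genotypes in CD8+ TILs the differences were 0.16 for Psmb8 over Psmb5, 0.04 for Psmb9 over Psmb6 and 0.42 for Psmb10 over Psmb7, with overlap in each. Without the low-detection WT replicate 1 they were 0.30, 0.24 and 0.22. Of the 100-base windows of the longest Psmb5 transcript, 24.9% are found in another gene as well, so the counts of Psmb5 are uncertain.

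**Figure D5:**
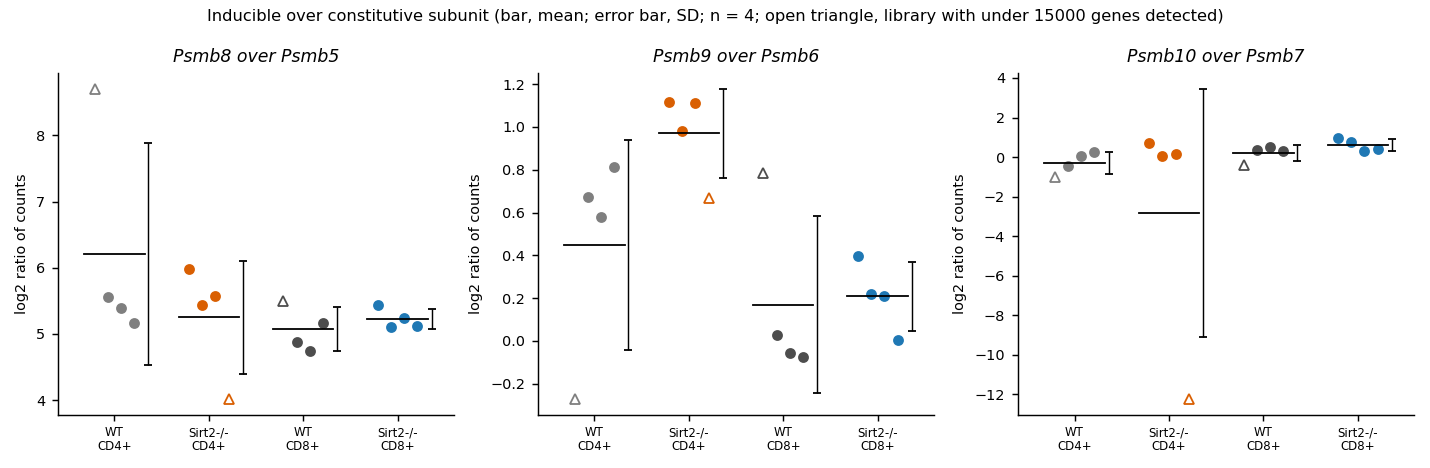
Log2 ratio of counts of each inducible proteasome subunit over its constitutive counterpart in every library (bar, mean; error bar, SD; n = 4; open triangle, library with under 15000 genes detected; each panel with its own axis). Psmb9 over Psmb6 lies higher in the Sirt2-/- CD4+ than in the Sirt2-/- CD8+ libraries, and Psmb10 over Psmb7 reaches -12.2 in the library with Psmb10 at 0.

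Over the 13 libraries without low detection, the members did not all vary together. The correlation of a member's log2 CPM with the mean of the other 9 was highest for Tapbp (Pearson's r = 0.89) and Psmb9 (0.72) and near 0 for H2-D1 (0.04), Psmb8 (0.10), Psmb10 (-0.10) and B2m (-0.11). The 13 libraries include 4 groups and 2 cell types. With all 16 libraries r was highest for Nlrc5 (0.91) and was 0.86 for Psmb9, 0.72 for Psmb10 and 0.66 for B2m. It was 0.29 for Psmb8, 0.24 for Tapbp and -0.09 for H2-D1. The order of the members thus depended on the low-detection libraries. Of 8315 other genes with a mean of at least 10 CPM, those whose log2 CPM followed the mean of the members most closely over the 13 libraries were Cxcl10 (r = 0.90), Ifit3 (0.88), Socs1 (0.88), Jun (0.86) and Zfp74 (0.86). Over all 16 libraries r was 0.82, 0.20, 0.74, 0.22 and 0.89 for these genes, so the likeness of Ifit3 and Jun did not hold when the low-detection libraries were included.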

How the data were processed

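CD4+ and CD8+ TILs were profiled by stranded total RNA sequencing. The authors deposited raw counts for each gene and library in 1 table, with no scaling. The submitters' processing notes name STAR, HTSeq and mm10, with no versions or settings. All 55450 gene identifiers are those of GENCODE M21 (GRCm38). Libraries were grouped by their titles, and 0 columns were left unmapped.

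Counts were tested in R 4.3.3 with edgeR 4.0.16 (TMM, filterByExpr, robust quasi-likelihood fit, two-sided), each comparison on its own 8 libraries and the difference of the genotype effect on all 16. Benjamini-Hochberg adjustment ran over all genes tested, and called means an adjusted p below 0.05. The standard error is the fold change divided by the root of F. CPM printed were scaled to the library total. Log2 CPM for likeness used a prior count of 2. RPKM used the union of annotated exons. A gene at 0 allows up to 3 counts, and such limits cover counting error only, since reads carry no molecular identifiers. The members and lists were chosen with earlier results of these data known. All 10 members and Sirt2, called genes of the lists (at most 4 per list and comparison), Psmb5, Psmb6, Psmb7, Ifng, Irf1 and the 5 genes of highest likeness were named, and 1 further gene is not reported here. The scripts were tested on simulated data. Alternatives were DESeq2 1.42.0, limma-voom (limma 3.58.1) with quality weights, other normalizations, no filter, 1 model over all 16 libraries, a replicate block and fits that leave libraries out.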

Additional observations from a re-analysis of the deposited data

Results flagged for a closer look

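In 4 of 52 groups of 4 libraries tested for the members' CPM and the subunit ratios, 1 library stood far from the other 3 by Dixon's test. Chance alone flags about 1 in 20 such groups, 2.6 here, and all 4 flagged values came from low-detection libraries. Psmb10 was at 0 CPM in Sirt2-/- CD4+ replicate 4, with 38.1 to 44.5 CPM in the other 3 libraries, and the log2 ratio of Psmb10 over Psmb7 was -12.2 there, against 0.06 to 0.69. The log2 ratio of Psmb8 over Psmb5 was 8.71 in WT CD4+ replicate 1, against 5.16 to 5.56 in the others. The log2 ratio of Psmb9 over Psmb6 was 0.79 in WT CD8+ replicate 1, against -0.08 to 0.03.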

How the results depend on the processing

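Between genotypes and for the difference of the genotype effect, 0 members were called under each alternative run. Over all genes, the 0 calls between genotypes in CD4+ TILs became 7 with DESeq2, 4 with limma-voom and 6 without the low-detection libraries, and the 1 call in CD8+ TILs became 28 with DESeq2, 5 with limma-voom, 5 with no filter on low counts, 7 without the low-detection library, 4 with the replicate block and 0 to 7 leaving out each library in turn (7 without WT CD8+ replicate 1). The difference of the genotype effect went from 0 calls to 2 with DESeq2. Between cell types in WT, 1765 genes became 2651 with DESeq2, 5504 with limma-voom, 4394 without the low-detection libraries, 811 with all 16 libraries in 1 model and 1022 to 2767 leaving out each library, and the 2 members became 6 with limma-voom, 1 with all 16 libraries in 1 model and 1 to 2 leaving out each library. Between cell types in Sirt2-/- TILs, 354 genes became 1339 with DESeq2, 4481 with limma-voom, 4250 without the low-detection library, 108 with the replicate block, 781 with all 16 libraries in 1 model and 111 to 4250 leaving out each library, and the 0 members became 2 with DESeq2, 4 with limma-voom, 1 with no filter on low counts, 4 without the low-detection library and 0 to 4 leaving out each library.

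The replicate number was no block in the values reported. Deviations from the group means of same-numbered libraries correlated at -0.078, 0.094, 0.081 and -0.049 between genotypes in CD4+, at 0.033, -0.031, -0.082 and 0.0047 in CD8+, at 0.12, 0.11, 0.13 and 0.098 between cell types in WT and at 0.15, 0.026, -0.018 and -0.023 in Sirt2-/- TILs, so the numbers were not taken as pairs (in WT TILs 1 of 4 values fell short of 0.1). With the replicate block, 4, 1619 and 108 genes were called in CD8+ TILs and between cell types in WT and Sirt2-/- TILs, and H2-K1 joined H2-D1 and Tap2 in WT TILs.

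The fold changes that turned sign were not called with all libraries. In CD4+ TILs between genotypes, H2-D1 was -0.017 with DESeq2 and with its size factors, -0.0040 with no filter and -0.0037 with all 16 libraries, Psmb9 and Psmb10 were 0.24 and 0.25 with limma-voom, and without the low-detection libraries Tap1, Psmb8, Psmb9, Psmb10 and Nlrc5 were -0.0030, -0.012, 0.17, 0.10 and 0.021. Leaving out each library gave H2-K1 -0.19 to 0.0049, H2-D1 -0.025 to 0.033, Tap1 -0.10 to 0.37, Psmb9 -0.33 to 0.12, Psmb10 -0.31 to 0.39 and Nlrc5 -0.24 to 0.074. Between cell types, Nlrc5 in WT was -0.015 with limma-voom, and in Sirt2-/- TILs Tap2, Tapbp and Psmb9 were -0.062, 0.017 and -0.076 with limma-voom, Tap2 and Psmb9 -0.13 and -0.15 without the low-detection library and Tapbp 0.0091 with all 16 libraries. Leaving out each library there gave Tap2 -0.13 to 0.29, Tapbp -0.13 to 0.10 and Psmb9 -0.15 to 0.29. For the difference of the genotype effect, Psmb9 was -0.0047 with limma-voom and B2m 0.017 with the replicate block, and leaving out each library gave B2m -0.24 to 0.14, Psmb8 -0.015 to 0.24 and Psmb10 -0.022 to 0.69. Without the low-detection libraries, the genotype difference in CD4+ TILs was 0.29 for the log2 ratio of Psmb8 over Psmb5 and 0.36 for Psmb10 over Psmb7. Leaving out each library gave the latter -3.71 to 0.60, Psmb8 over Psmb5 between cell types in Sirt2-/- TILs -0.44 to 0.22, and Psmb9 over Psmb6 between genotypes in CD8+ TILs -0.044 to 0.24. The cause of these changes was not tested. Precision was low for Psmb10 between genotypes in CD4+ TILs, with an SE of 1.37, against 0.21 without the low-detection libraries.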
